A study of Homo sapiens with 4 samples.

Results

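C21orf91, UAP1L1, SAMD5 and SYT16 are little-studied genes whose transcripts were higher in renal tubule cells after the fusion gene PRCC-TFE3 was switched on, and they are described here beside UAP1 and SAMD4A, relatives of UAP1L1 and SAMD5. The 4 induced genes were chosen by their higher level in Doxy(+) than in Doxy(-) libraries of this same experiment, and the 2 controls by family, so the values of the first 4 are a description and no test is given for them. The 6 genes are among 33886 gene symbols with a measured transcript, of which 13542 passed the low-count filter. All 6 passed, SYT16 only through its counts after induction.

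Sugar nucleotides supply the building blocks of glycans, and UDP-N-acetylglucosamine (UDP-GlcNAc) is the one used for N-glycans, O-GlcNAc on intracellular proteins and sialic acid synthesis. UAP1 makes UDP-GlcNAc from UTP and N-acetylglucosamine-1-phosphate, and UAP1L1 is its paralog with a much less studied role. C21orf91, also called EURL, is a chromosome 21 gene examined mainly in the developing nervous system, where it has been tied to beta-catenin. SAMD5 carries a sterile alpha motif (SAM), a small protein interaction domain that SAMD4A (Smaug1) uses to bind RNA hairpins and repress translation. SYT16 is an atypical synaptotagmin, a member of a family with tandem C2 domains best known for membrane trafficking. TFE3 belongs to the MiT/TFE basic helix-loop-helix factors, which bind E-boxes in DNA.

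Polyadenylated RNA was sequenced from HK-2 cells, an immortalised cell line of the human renal proximal tubule that carries HA-tagged PRCC-TFE3 under a doxycycline-inducible (Tet-On) system. Doxy(-) cells received no doxycycline, and Doxy(+) cells received 0.2 microg/ml doxycycline for 24 h. Each group had 2 libraries, numbered 1 and 2, and the labels do not say whether these came from separate cultures, so p-values measure only the spread between these libraries, which may be technical. All 4 libraries carried the transgene, and no HK-2 cells without it were analysed here, so a response to doxycycline itself and a response to PRCC-TFE3 cannot be told apart.

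The deposited estimated counts summed to between 14042545 and 16618401 reads per library. TFE3, the targeted gene, stood at 66.9 and 69.1 CPM (TMM-scaled counts for every 1000000 reads) in Doxy(-), against 367 and 322 CPM in Doxy(+). Of 9 tested genes on a list of renal tubule and epithelial identity, 5 were called (against 19.4% of all genes tested), with GGT1 higher and KRT8, KRT18, CDH2 and VIM lower. KRT18 was named after its values were seen. CDH2 and VIM are not specific to epithelium, whereas KRT8 and KRT18 are epithelial keratins. The keratins had log2 fold changes of -0.24 and -0.24 (edgeR adjusted p 0.00369 and 0.0139). Whether epithelial identity changed was not tested. EPCAM was not called by edgeR (log2 fold change -0.20, adjusted p 0.0777) and CDH1 was below the filter. Both were named after their values were seen. PAX8, a renal lineage factor, was at 569 ± 6.26 CPM in Doxy(-) and 595 ± 14.4 CPM in Doxy(+) (SD, n = 2 each). The proximal tubule genes LRP2, AQP1, ANPEP and SLC22A6 were below the filter, with SLC22A6 at 0 in all 4 libraries. CUBN and SLC34A1, named after their values were seen, were low, at 0.408 to 0.854 and 0.233 to 1.32 CPM, whereas GGT1 was at 68.7 to 86.0 CPM, so some but not all of the proximal tubule markers were absent or scarce. Of 9 markers of other cell types, 7 were below the filter, COL1A1 was called lower and NPHS1 higher, at 0.0776 and 0.136 CPM in Doxy(-) against 1.32 and 1.04 CPM in Doxy(+). NPHS1 passed the filter only through its Doxy(+) counts, and it was also called without that filter. The calls of GGT1, KRT18, COL1A1 and NPHS1 were each lost on leaving out at least 1 library (adjusted p 0.0501 to 0.222). The part of these markers in the results below was not tested.

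C21orf91 (ENSG00000154642.11, chr21:17788974-17819386 on hg38, minus strand) was at 4.89 and 5.72 CPM in Doxy(-), against 41.6 and 42.9 CPM in Doxy(+). Both Doxy(+) libraries lay far above both Doxy(-) libraries, with little spread inside either group. The means were 5.30 ± 0.586 and 42.3 ± 0.901 CPM (SD, n = 2 each), a log2 fold change of 2.99 (SE 0.103), or 7.93-fold. These values rest on estimated counts of 63.0 and 84.3 in Doxy(-), against 536 and 576 in Doxy(+). In bulk RNA a larger share of cells that express a gene and more RNA per cell cannot be told apart.

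UAP1L1 (ENSG00000197355.11, chr9:137077517-137084539, plus strand) was at 5.59 and 5.65 CPM in Doxy(-), against 35.7 and 34.3 CPM in Doxy(+). The libraries of a group were again close together and the groups did not overlap. The means were 5.62 ± 0.0442 and 35.0 ± 1.03 CPM, a log2 fold change of 2.64 (SE 0.0960), or 6.22-fold.

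SAMD5 (ENSG00000203727.4, chr6:147508690-147737547, plus strand) was at 1.86 and 1.97 CPM in Doxy(-), against 3.73 and 5.06 CPM in Doxy(+). The Doxy(+) libraries were both higher, but Doxy(+) 2 exceeded Doxy(+) 1 by more than any difference within Doxy(-). The means were 1.92 ± 0.0789 and 4.40 ± 0.945 CPM, a log2 fold change of 1.19 (SE 0.266), or 2.29-fold. The estimated counts behind them were 24.4, 29.2, 48.2 and 68.4, so SAMD5 was measured much less precisely than C21orf91.

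SYT16 (ENSG00000139973.18, chr14:61811974-62112550, plus strand) had an estimated count of 0 in both Doxy(-) libraries and of 21.9 and 18.8 in Doxy(+) 1 and 2. It was thus seen in the Doxy(+) libraries alone, at 1.71 and 1.42 CPM. A count of 0 allows up to 3 counts per library, an average of 0.218 CPM over the Doxy(-) libraries, so the Doxy(+) mean of 1.56 ± 0.207 CPM was at least 7.15-fold higher. This limit covers the counting error of the Doxy(-) zeros only, and not that of the Doxy(+) counts.

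UAP1 (ENSG00000117143.14, chr1:162561722-162601240, plus strand), the paralog control, was at 32.7 and 18.4 CPM in Doxy(-), against 39.5 and 31.4 CPM in Doxy(+). The groups overlapped, since Doxy(-) 1 was above Doxy(+) 2, and the Doxy(-) libraries differed from each other more than the group means did. The log2 fold change of 0.48 (SE 0.257) did not pass the edgeR quasi-likelihood test (adjusted p 0.254). The result turned on the Doxy(-) library used: the log2 fold change was 0.94 (adjusted p 0.00544) without Doxy(-) 1 and 0.11 (adjusted p 0.629) without Doxy(-) 2. With the replicate number as a block it was 0.51 (adjusted p 0.0363).

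SAMD4A (ENSG00000020577.14, chr14:54566117-54793315, plus strand), the SAM domain control, was lower after induction. It was at 124 CPM in both Doxy(-) libraries and at 104 and 102 CPM in Doxy(+), with no overlap. The means of 124 ± 0.411 and 103 ± 1.16 CPM differed by -0.27 on the log2 scale (SE 0.0412), past the edgeR test (adjusted p 0.0071). The call was lost without Doxy(+) 1 (adjusted p 0.0554) and without Doxy(+) 2 (adjusted p 0.0617).

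Over all genes tested, 19.4% had an adjusted p under 0.05, 9.81% higher and 9.59% lower, and 1.5% (higher) and 0.473% (lower) were also past a log2 fold change of 1. Both Doxy(+) libraries were above both Doxy(-) libraries in 31.1% of genes and below both in 30%. The first ordering held in all 4 induced genes, as the way they were chosen fixes, and the second in SAMD4A. The plot of members by library shows the step in C21orf91 and UAP1L1, the smaller one in SAMD5, and the scatter of UAP1.

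**Figure D1:**
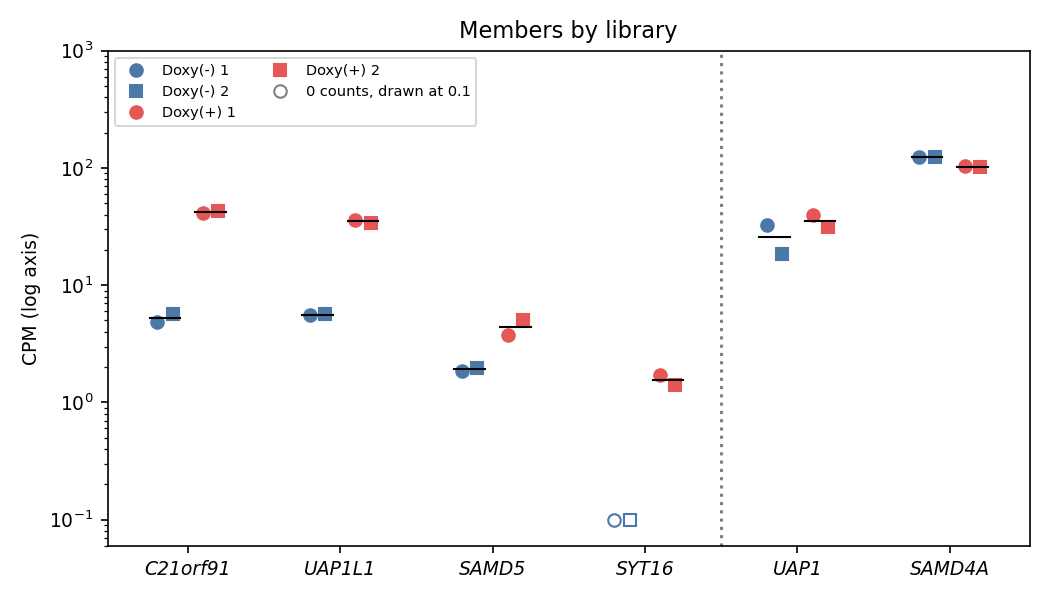
CPM of each gene in each library on a log axis, Doxy(-) in blue and Doxy(+) in red, number 1 as circles and number 2 as squares, black bars for group means, and open symbols drawn at 0.1 for a count of 0. C21orf91 stands near 5 CPM in Doxy(-), against 41.6 and 42.9 CPM in Doxy(+), whereas the groups of UAP1, right of the dotted line, overlap.

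Levels of different genes were compared as TPM, which is scaled by transcript length. In Doxy(-) the order from low to high was SYT16 (0 and 0 TPM), SAMD5 (0.454 and 0.785), UAP1L1 (2.49 and 2.30), C21orf91 (3.23 and 3.87), UAP1 (24.1 and 13.7) and SAMD4A (45.3 and 47.1), and no neighbours in this order overlapped. In Doxy(+) SYT16 (0.806 and 0.661 TPM) and SAMD5 (0.922 and 1.60) stayed lowest, followed by UAP1L1 (15.2 and 15.1) and C21orf91 (23.4 and 27.6). SAMD4A (39.9 and 38.5 TPM) lay within the range of UAP1 (41.0 and 30.7) there, so the order of the controls could not be given. C21orf91 and UAP1L1 thus came from a low level to a moderate one, while SAMD5 and SYT16 stayed scarce.

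Very short transcripts weigh heavily in TPM. Of the UAP1 TPM in Doxy(+), 11.8 and 7.54 came from UAP1-204, a transcript of 128 bases with estimated counts of 3 and 2. Without transcripts under 500 bases, a setting chosen after seeing the data, UAP1 was at 29.1 and 23.1 TPM in Doxy(+), which overlapped C21orf91. SAMD5 had 0.456 TPM in Doxy(-) 2 and 1.23 TPM in Doxy(+) 2 under that setting.

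UAP1L1 made up 9.34% and 14.4% of the summed TPM of UAP1L1 and UAP1 in Doxy(-), and 27.1% and 33.0% in Doxy(+). The means were 11.9% ± 3.56 and 30.0% ± 4.21 (SD, n = 2 each), with the groups apart. Leaving out transcripts under 500 bases gave 34.3% and 39.5% in Doxy(+). UAP1 was the more abundant of the pair in every library by TPM. By CPM, which is not scaled by length, the UAP1L1 share was 14.6% and 23.4% in Doxy(-), against 47.5% and 52.2% in Doxy(+), so UAP1L1 had more reads than UAP1 in Doxy(+) 2.

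Reads of paralogs can be confused where their sequences are alike, so the transcripts of UAP1L1 and UAP1 were compared base by base. UAP1L1-202 and UAP1-202 each have 9 coding exons, 7 of which hold the same number of coding bases, and their coding regions are 1521 and 1515 bases long. The 6 inner exons of equal length were 49.3% to 68.1% identical. The most alike pair is printed from GENCODE 44 on hg38, UAP1L1 at chr9:137080002-137080142 and UAP1 at chr1:162588693-162588833, both 141 bases on the plus strand, with capitals at the 45 bases that differ.
UAP1L1 exon: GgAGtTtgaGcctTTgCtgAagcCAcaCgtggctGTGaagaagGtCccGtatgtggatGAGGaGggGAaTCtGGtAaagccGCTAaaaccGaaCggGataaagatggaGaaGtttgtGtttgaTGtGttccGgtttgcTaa
UAP1 exon: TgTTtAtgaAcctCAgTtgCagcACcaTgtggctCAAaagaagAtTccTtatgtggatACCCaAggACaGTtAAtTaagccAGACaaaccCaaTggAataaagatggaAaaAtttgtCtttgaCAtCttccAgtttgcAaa
The differing bases are spread along the exon. No run of 31 bases was shared by the compared transcripts of the 2 genes, and the longest shared run was 13 bases. SAMD5 and SAMD4A also shared no run of 31 bases, their longest being 27 bases. No run of 75 bases was shared by either pair.

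The authors' quantifier divided each gene's reads among annotated transcripts. These estimates describe the single forms and rest on how reads shared by several forms were divided. Of 51663 transcripts tested, both Doxy(+) libraries were above both Doxy(-) in 20.8%. The same held for 7 of the 8 tested transcripts of the induced genes, which the choice of these genes largely fixes. At this level 9 transcripts, 0.0174% of those tested, had an adjusted p under 0.05, and those that were lower made up 0.00581%.

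For C21orf91, the main coding transcript C21orf91-201 had estimated counts of 41.7 and 57.4 in Doxy(-), against 420 and 409 in Doxy(+). It held 66.2% and 68.1% of the gene's count in Doxy(-) and 78.3% and 71.1% in Doxy(+), the largest share in every library. C21orf91-202 went from 0.973 and 15.4 to 93.0 and 150, and its share of 1.54% and 18.3% against 17.4% and 26.0% overlapped between groups. C21orf91-204 overlapped between the groups, with counts of 11.3 and 10.1 against 16.3 and 6.18, so its share was lower in both Doxy(+) libraries. The coding form C21orf91-203, which was not tested, had counts of 9.05 and 1.39 in Doxy(-), against 0 and 0 in Doxy(+). C21orf91-202 ends earlier than C21orf91-201 and lacks a 63-base exon that the latter includes, at chr21:17795208-17795270 on the minus strand.
C21orf91-201 extra exon: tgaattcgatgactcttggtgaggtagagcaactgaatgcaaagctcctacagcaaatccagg
C21orf91-201, with this exon, and C21orf91-202, without it, were both higher in Doxy(+), and they also differ at their ends. C21orf91-204 extends to 17795208 as well, so these counts do not tell how the use of this exon changed.

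For UAP1L1, the forms differ in where they start. UAP1L1-202, which begins at the upstream start at 137077517 and covers all 9 coding exons, had counts of 11.6 and 7.19 in Doxy(-), against 146 and 166 in Doxy(+). Its share of the gene's count was 16.1% and 8.64% in Doxy(-), against 31.8% and 36.1% in Doxy(+), higher in both Doxy(+) libraries. UAP1L1-201, which begins further in at 137078141, had counts of 52.9 and 42.7 against 167 and 171. Its share was lower after induction, 73.4% and 51.4% against 36.3% and 37.2%. The retained-intron form UAP1L1-203 had counts of 7.54 and 33.3 in Doxy(-), against 147 and 121 in Doxy(+), and its share overlapped between the groups.

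SAMD5 was measured almost wholly by SAMD5-201, with counts of 24.4 and 28.2 in Doxy(-), against 48.2 and 67.4 in Doxy(+). SYT16 was measured by a single transcript, SYT16-203, which is annotated as a target of nonsense-mediated decay and begins inside the gene at 61995834. The other 5 annotated SYT16 transcripts were not analysed here, so the SYT16 values do not tell whether a coding form was present.

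For UAP1, the difference between the Doxy(-) libraries lay mostly in UAP1-202. Its counts were 135 and 32.3 in Doxy(-), against 152 and 115 in Doxy(+), with Doxy(-) 2 far below the rest. UAP1-201 had counts of 272 and 233 against 345 and 298, a log2 fold change of 0.42 (SE 0.212) that did not pass the edgeR test (adjusted p 0.720). The forms differ by a 51-base coding exon that UAP1-201 includes, at chr1:162592732-162592782 on the plus strand.
UAP1-201 extra exon: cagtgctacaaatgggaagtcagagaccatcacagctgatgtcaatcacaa
UAP1-201 and UAP1-202 are 3559 and 3508 bases long in GENCODE 44, but were 2069 and 2294 bases long in the deposited estimates. The counted forms thus differed in other bases too, so the low UAP1-202 count of Doxy(-) 2 cannot be tied to this exon. For SAMD4A, SAMD4A-201 had counts of 815 and 918 against 668 and 617, and SAMD4A-204 had 304 and 312 against 222 and 227. Both were lower in both Doxy(+) libraries, whereas SAMD4A-202 overlapped. None of the 10 tested UAP1 and SAMD4A transcripts passed the edgeR test after adjustment, and 2 had an unadjusted p under 0.05, SAMD4A-201 (p 0.0198, adjusted p 0.368) and SAMD4A-204 (p 0.0469, adjusted p 0.513).

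**Figure D2:**
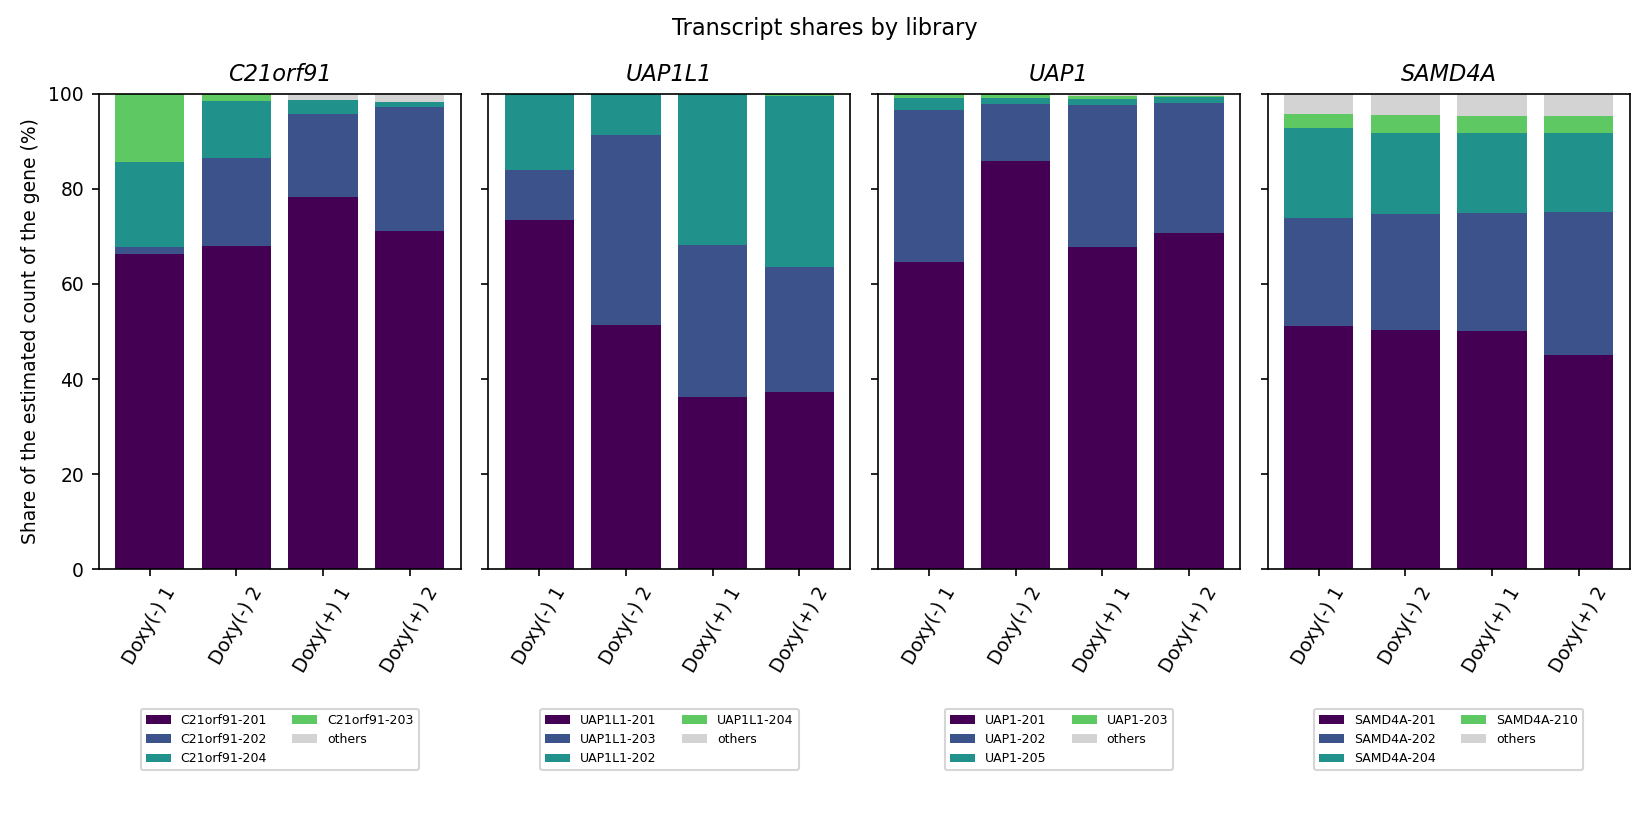
Share of each gene's estimated count (percent) held by its 4 leading transcripts in each library, with the rest in grey. UAP1L1-202 takes 31.8% and 36.1% in Doxy(+) against 16.1% and 8.64% in Doxy(-), and UAP1-202 is smallest in Doxy(-) 2, at 11.9%.

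Next, the pathway around UAP1L1 was examined. Of 15 genes of UDP-GlcNAc synthesis and salvage, all tested, 7 were higher, 1 was lower and 7 did not pass the test. Thus 53.3% were called, against 19.4% of all genes tested. The list was chosen with earlier results of these data known, so this share is a description. The median log2 fold change was 0.06, against 0.00 over all genes. The 3 genes past a log2 fold change of 1 were GNPDA1, AMDHD2 and RENBP, whose enzymes work on the salvage or breakdown side. GNPDA1, which deaminates glucosamine-6-phosphate toward glycolysis, was at 99.6 and 90.98 CPM in Doxy(-), against 251 and 247 CPM in Doxy(+). Its libraries did not overlap, and the log2 fold change of 1.39 (SE 0.0513) had an edgeR adjusted p of 7.29e-05. AMDHD2, which removes the acetyl group of N-acetylglucosamine-6-phosphate, was at 24.7 and 22.5 CPM in Doxy(-), against 68.2 and 64.4 CPM in Doxy(+). It rose by a log2 fold change of 1.49 (SE 0.0706, adjusted p 0.000172). RENBP, which interconverts N-acetylglucosamine and N-acetylmannosamine, rose from a low level, 0.621 and 0.408 CPM, to 3.26 and 3.43 CPM (log2 fold change 2.69, SE 0.351, adjusted p 0.00431). RENBP passed the low-count filter only through its Doxy(+) counts. These 3 genes were called under all 13 alternatives, which include a fit without the filter.

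Enzymes of the synthetic steps included GFPT1, GFPT2 and PGM3, named after their values were seen, and none of these passed the test. GFPT1, the rate-limiting entry enzyme, had a log2 fold change of 0.03 (SE 0.0493, adjusted p 0.742), and PGM3 one of -0.08 (SE 0.0417, adjusted p 0.222). Their mean levels in Doxy(-) and Doxy(+) were 167 and 170 CPM for GFPT1 and 165 and 155 CPM for PGM3. GFPT2, the other form of the entry enzyme, was at 6.13 and 6.80 CPM in Doxy(-), against 4.19 and 2.68 CPM in Doxy(+), with no overlap (log2 fold change -0.91, SE 0.256, adjusted p 0.0561). GNPNAT1, which acetylates glucosamine-6-phosphate, fell from 74.5 and 81.0 CPM to 66.1 and 65.1 CPM (log2 fold change -0.25, SE 0.0604, adjusted p 0.0373). That call was lost without Doxy(-) 2, Doxy(+) 1 or Doxy(+) 2, at adjusted p 0.0969, 0.145 and 0.163. The other higher genes included NAGK, NANS and NANP, named after their values were seen, with log2 fold changes of 0.21, 0.36 and 0.39. NANS and NANP belong to sialic acid synthesis, and NAGK phosphorylates free N-acetylglucosamine. Of these, NANS kept its call in every fit that left out 1 library, and NAGK lost its call in all 4 such fits (adjusted p 0.0558 to 0.167) and NANP when either Doxy(+) library was left out (0.0629 and 0.0727). When either Doxy(+) library was left out, fewer genes of the list were called, and also fewer of all genes.

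Of 15 genes that use or transport UDP-GlcNAc, 2 were higher and 1 lower (20% called, close to the 19.4% of all genes, with a median log2 fold change of 0.03). ALG14, a subunit of the enzyme that adds the second sugar of the N-glycan precursor, went from 7.52 and 7.42 CPM to 14.3 and 13.5 CPM (log2 fold change 0.89, SE 0.119, adjusted p 0.0046). MGAT5, an N-glycan branching enzyme, went from 124 and 115 CPM to 151 and 158 CPM (0.37, SE 0.0529, adjusted p 0.00568). OGT, which attaches O-GlcNAc to intracellular proteins, went down from 323 and 311 CPM to 271 and 263 CPM (-0.25, SE 0.0370, adjusted p 0.00683). No libraries of the 2 groups overlapped in these genes. The same is common over all genes tested, with both Doxy(+) libraries above both Doxy(-) in 31.1% and below in 30%. ALG14 and MGAT5 were called under all 13 alternatives. OGT was called under 9 of them, not including the fit without Doxy(+) 2, with log2 fold changes from -0.28 to -0.12 over the 13.

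**Figure D3:**
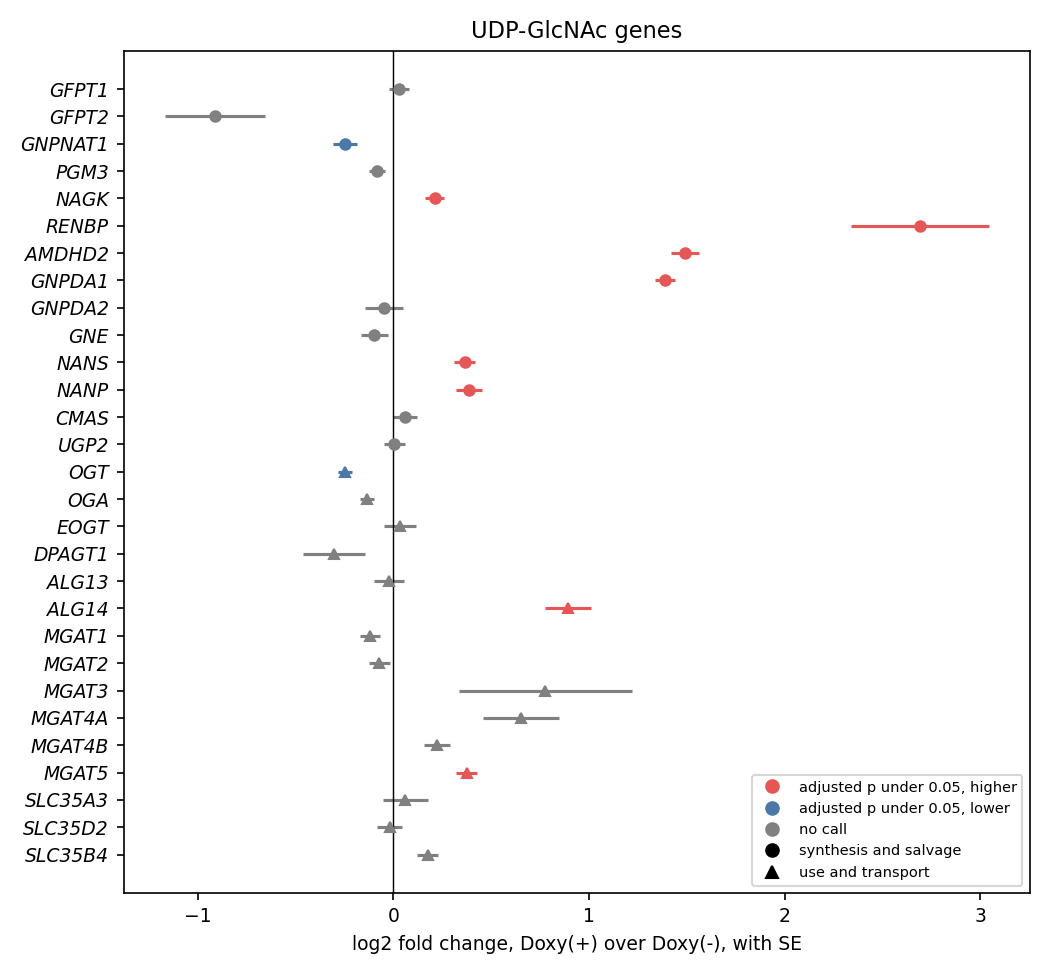
Log2 fold change of Doxy(+) over Doxy(-) with its SE for the UDP-GlcNAc genes reported here, circles for synthesis and salvage and triangles for use and transport, red and blue for genes called higher and lower. RENBP, AMDHD2 and GNPDA1 stand past 1, at 2.69, 1.49 and 1.39, while GFPT1 and PGM3 lie near 0.

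Relatives of the other members were read in the same way. Of 17 other SAM domain genes, 12 were tested, 4 were higher and 1 was lower. Thus 41.7% were called, against 19.4% of all genes tested, with a median log2 fold change of 0.12. This list too was chosen with earlier results known, so its share is a description. SAMD11 rose from 3.10 and 3.13 CPM to 12.7 and 13.9 CPM (log2 fold change 2.09, SE 0.151, adjusted p 0.000573) and was called under all 13 alternatives. SAMD12 went from 5.51 and 5.44 CPM to 10.7 and 9.16 CPM (0.86, SE 0.157, adjusted p 0.0142). SASH1, which joins a SAM with an SH3 domain, had a log2 fold change of 0.39 (adjusted p 0.0364). SAMD9L, an interferon-inducible gene named after its values were seen, had one of 0.77 (adjusted p 0.0472). SAMD1, which binds chromatin, fell by 0.37 on the log2 scale (adjusted p 0.0193). Calls were lost for SAMD12 without Doxy(+) 1 (adjusted p 0.0880), for SAMD1 without Doxy(+) 2 (0.114), for SASH1 without Doxy(-) 1, Doxy(+) 1 or Doxy(+) 2 (0.106, 0.0737 and 0.168) and for SAMD9L without Doxy(-) 2, Doxy(+) 1 or Doxy(+) 2 (0.120, 0.204 and 0.114). DESeq2 called 1 gene of this list. Over all genes it called 781 higher and 775 lower, against 1328 and 1299 by edgeR. Fewer genes of the list, and fewer of all genes, were also called when either Doxy(+) library was left out.

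Among 27 synaptotagmins and related genes with tandem C2 domains, 15 were tested and 1 was higher. The share called was 6.67%, against 19.4% of all genes tested, and the median log2 fold change was 0.18. The higher gene was SYTL2, a Rab27 effector. It went from 130 and 128 CPM to 145 and 150 CPM (log2 fold change 0.19, SE 0.0406, adjusted p 0.0222). Its call was lost without Doxy(+) 1 (adjusted p 0.0932) and without Doxy(+) 2 (0.161). SYT14, the closest in kind to SYT16 among these, was at 36.5 ± 4.06 CPM in Doxy(-) and 45.4 ± 1.45 CPM in Doxy(+) (0.31, SE 0.0867, adjusted p 0.0540), and was chosen after its values were seen.

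The CCR4-NOT deadenylase, which Smaug proteins recruit to messenger RNA, had 16 tested subunits and adaptors, 0 higher and 1 lower. The share called was 6.25%, against 19.4% of all genes tested, and the median log2 fold change was -0.03. The lower gene was TOB2, an adaptor, with a log2 fold change of -0.27 (SE 0.0657, adjusted p 0.0344), lost without Doxy(-) 2, Doxy(+) 1 or Doxy(+) 2 (0.0735, 0.176 and 0.0853). Of 16 Wnt and beta-catenin feedback genes, 9 were tested, with 1 higher and 1 lower (22.2% called, close to the 19.4% of all genes, with a median log2 fold change of 0.04). TNFRSF19, a receptor of the tumor necrosis factor family, went down from 58.6 and 53.8 CPM to 32.8 and 30.2 CPM (-0.84, SE 0.0736, adjusted p 0.00107) and was called under all 13 alternatives. NKD2, a Wnt inhibitor, was at 0.853 and 0.680 CPM against 2.17 and 2.09 CPM (1.47, SE 0.340, adjusted p 0.0312). NKD2 passed the low-count filter only through its Doxy(+) counts, and its call was lost on leaving out any of the 4 libraries, with adjusted p from 0.0847 to 0.148.

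Genes near the members were examined to see whether the change extended along the chromosome. Of 190 annotated genes within 500 kb of a member, 61 were tested, 4 were higher and 7 lower (18.0% called, against 19.4% of all genes). C21orf91 had 2 tested neighbours, BTG3 and CXADR, at log2 fold changes of 0.12 and 0.09. Neither they nor the 1 tested neighbour of SAMD5 nor the 3 of UAP1 were called by edgeR, had an unadjusted p under 0.05 or were called by DESeq2. UAP1L1 lies in a dense region with 39 tested neighbours, of which 3 were higher and 4 lower (17.9% called, close to the 19.4% of all genes). PTGDS, a prostaglandin D2 synthase 95.8 kb upstream, went from 12.5 and 13.7 CPM to 42.8 and 36.9 CPM (1.60, SE 0.106, adjusted p 0.000413). LCN10, a lipocalin 334 kb upstream, had a log2 fold change of 1.79 (adjusted p 0.00986) and was called under 10 of the 13 alternatives. DPP7, a lysosomal peptidase 26.0 kb downstream, had one of 0.44 (adjusted p 0.00262) and was called under all 13. The closest called neighbour, SAPCD2, 6.96 kb upstream, went down from 32.8 and 34.7 CPM to 20.97 and 21.2 CPM (-0.68, adjusted p 0.00234). TUBB4B was also lower (-0.24, adjusted p 0.00358). Calls over all genes were likewise in both directions, at 9.81% higher and 9.59% lower. EDF1 and NPDC1, the other lower neighbours of UAP1L1, were named after their values were seen and lost their calls when either Doxy(+) library was left out (adjusted p 0.0540 to 0.131).

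Around SYT16, 1 of 5 tested neighbours was called (20%, against 19.4% of all genes). This was the noncoding RNA LINC03033, which was lower (-0.50, adjusted p 0.0224). Around SAMD4A, 3 of 11 were called (27.3%). Of these, DLGAP5 (-0.44, adjusted p 0.00319) and CDKN3 (-0.26, adjusted p 0.0353) were lower and GCH1 was higher (0.39, adjusted p 0.0429). LINC03033, CDKN3 and GCH1 were named after their values were seen, and each lost its call when either Doxy(+) library was left out (adjusted p 0.0581 to 0.202). Fewer of the 61 neighbours, and also fewer of all genes, were called without Doxy(+) 1 or without Doxy(+) 2. None of the 9 annotated genes that overlap a member was among the genes tested.

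**Figure D4:**
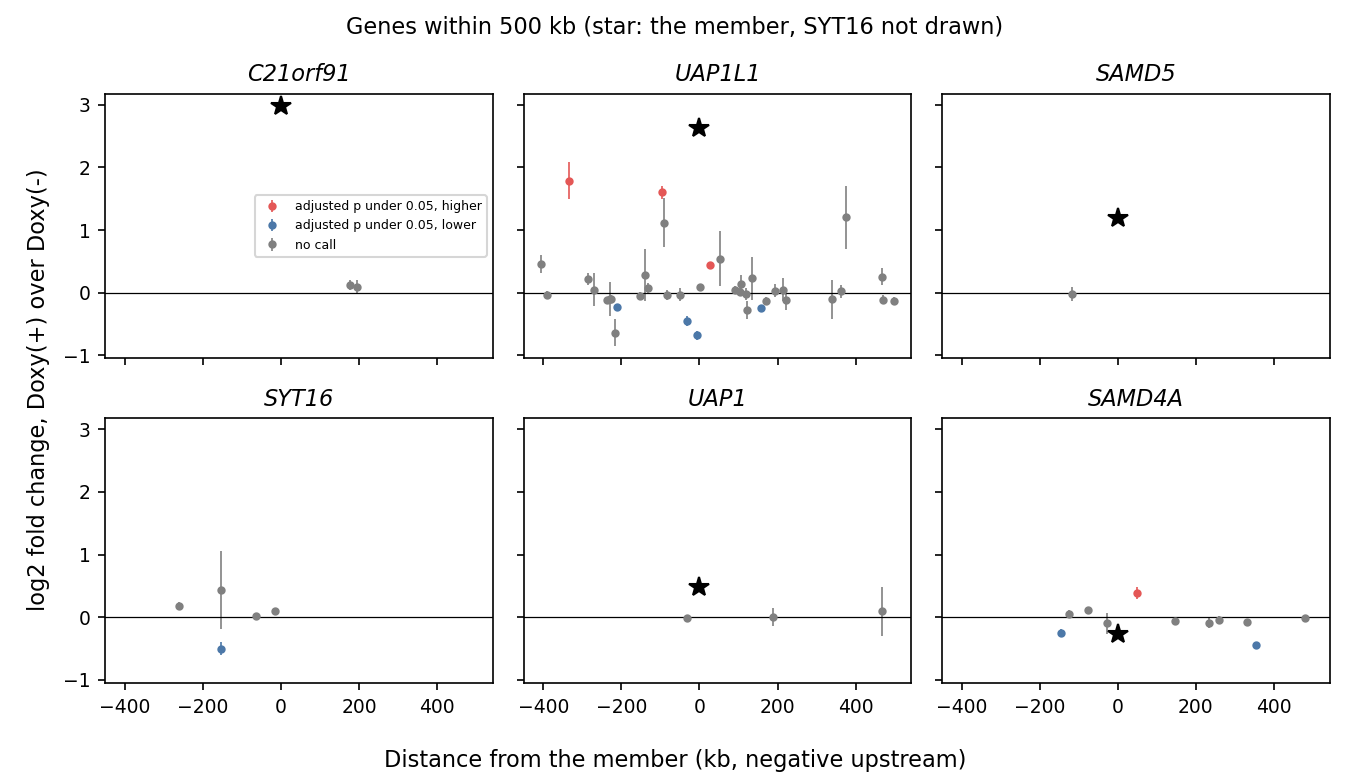
Log2 fold change with SE of tested genes within 500 kb of each member against distance in kb (negative upstream), with the member as a star. The stars of C21orf91 at 2.99 and UAP1L1 at 2.64 stand above all their neighbours, and SYT16 has no star because only a bound could be given.

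Genes with the most similar pattern were found by the Euclidean distance between centred log2 CPM profiles (prior count 2) over the 4 libraries, which holds little beyond the difference between the groups. Nearest to C21orf91 were SPINK1 (distance 0.291), UAP1L1 (0.392) and RSPO3 (0.444). SPINK1 encodes a trypsin inhibitor and RSPO3 a secreted enhancer of Wnt signalling. Nearest to UAP1L1 were CENPT (0.0947), SPINK1 (0.130) and GPNMB (0.215), of which CENPT is a kinetochore protein and GPNMB a glycoprotein of lysosomes and melanosomes. CENPT went from 33.4 and 32.7 CPM to 208 and 185 CPM, and GPNMB from 49.0 and 43.5 CPM to 254 and 248 CPM. Nearest to SAMD5 were TSPAN10 (0.0503), SLC46A3 (0.104) and PLPP3 (0.111). SPINK1 and SLC46A3 were low, each at 0.543 and 0.612 CPM in Doxy(-), so their distances also depend on the prior count. RSPO3, ENSG00000250575 and C21orf91 came out nearest to SYT16, but its profile depends on the prior count because both Doxy(-) libraries were at 0, so no distance is given.

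Because MiT/TFE factors bind E-boxes, promoter windows from RefSeq (GRCh38.p14, 250 bases before to 50 after a start) were searched on both strands. Windows were given for C21orf91 (1), SYT16 (2), UAP1 (3) and SAMD4A (3), and UAP1L1 and SAMD5 are named only. CACGTG, TCACGTGA (which contains it) and TCATGTG occurred in 0 of these 9 windows, against 7.26%, 0.980% and 2.92% of all 35116 promoter windows. The general E-box CANNTG, which all 3 contain, occurred in the window of C21orf91, in both of SYT16, in 2 of 3 of UAP1 and in 2 of 3 of SAMD4A, against 68.7% of all windows. The SYT16 windows are not at the start of the transcript that was measured. The C21orf91 promoter is printed because C21orf91 was the only induced gene with a measured transcript that begins at one of these windows, chr21:17819357-17819606 on the minus strand, with its only CANNTG match in capitals.
C21orf91 promoter: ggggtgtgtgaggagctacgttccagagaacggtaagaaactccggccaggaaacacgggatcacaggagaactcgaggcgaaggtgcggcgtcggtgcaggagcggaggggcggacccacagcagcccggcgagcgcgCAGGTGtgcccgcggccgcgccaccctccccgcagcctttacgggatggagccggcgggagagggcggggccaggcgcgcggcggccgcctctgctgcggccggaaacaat
A match is a description of these letters and not evidence of binding.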

How the data were processed

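Libraries were prepared with a stranded TruSeq mRNA kit from polyadenylated RNA of HK-2 cells, 4 libraries in all, and grouped by the treatment label. The processing notes of the submitters name Trim Galore 0.6.6, cutadapt 2.5, STAR 2.7.9a and hg38, and the study's methods add RSEM and DESeq2, but the deposited files have the layout that kallisto writes, so the quantifier, annotation release and strand setting are not given in the sources used here. The deposited expected counts (estimated counts per transcript, a read that fits several transcripts being divided among them) were not normalized. The deposited TPM values were scaled by the authors for transcript length and depth.

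Estimated counts of 180253 Ensembl transcripts were summed per gene symbol through GENCODE 44, which matched 150691 (83.6%), and unmatched identifiers held 9.66% to 9.89% of each library. Of 30 member transcripts with values, 22 had the same length as in GENCODE 44. Sums were rounded, and edgeR 4.0.16 (R 4.3.3) compared the groups (TMM, filterByExpr, quasi-likelihood, group as the only term, Benjamini-Hochberg over all genes tested), with calls made below an adjusted p of 0.05. The same test was run on transcripts. The limit of a log2 fold change of 1 was applied only where stated. The common biological coefficient of variation was 6.47%. The gene-level edgeR fit was also run on simulated counts with that coefficient for every gene, and its outcome is not reported here. The other fits were not simulated. A count of 0 was taken to allow 3 counts, and the SYT16 bound covers the counting error of the Doxy(-) zeros only.

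Other settings tried were no low-count filter, RLE size factors, a minimum mean CPM of 1, the replicate number as a block, leaving out each library, DESeq2 1.42.0, limma 3.58.1 on log2(TPM + 1) and log2(TPM + 0.1), length-scaled counts, and added counts of 3034 unmatched copies. The labels do not say what a number shares, and the correlation between same-numbered libraries of deviations from group means was -0.00914.

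The members and gene lists were chosen with earlier results of these data known. Named are the 6 members, up to 3 higher and 3 lower genes of smallest p from each list and from all neighbours, and the 3 nearest profiles of each induced gene. The individual results of some list genes are not reported here.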

Additional observations from a re-analysis of the deposited data

How the results depend on the processing

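No gene-level result with a call changed direction under the alternatives that were run, and the causes of the changes were not tested. Of the transcripts of the controls, none of them called, UAP1-202 went from 0.70 to -0.03 without Doxy(-) 2, and SAMD4A-202 from -0.05 to 0.02 without Doxy(-) 2 and 0.07 without Doxy(+) 1. Whether libraries with the same number form a pair is not known from the labels. With the replicate block UAP1 was called (log2 fold change 0.51, adjusted p 0.0363), 2 synaptotagmin-related genes were called and 0 transcripts were called, with 3146 at an unadjusted p under 0.05. The block moved no other count of calls by over 1.5 times and ended no call of SAMD4A.

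Leaving out each library gave log2 fold changes of 2.88 to 3.11 for C21orf91, 2.61 to 2.67 for UAP1L1, 0.95 to 1.40 for SAMD5, 0.11 to 0.94 for UAP1 and -0.28 to -0.26 for SAMD4A, and a SYT16 bound of 6.48 to 7.82-fold. A group reduced to 1 library was assumed to vary like the other. Genes with an adjusted p under 0.05 numbered 672 to 1250 higher and 596 to 1327 lower, against 1328 and 1299 in all libraries, and those also past a log2 fold change of 1 numbered 151 to 214 higher and 68 to 90 lower, against 203 and 64. Called list genes numbered 5 to 7 for UDP-GlcNAc synthesis and salvage, 2 to 4 for its use, 0 to 2 for synaptotagmins, 2 to 4 for SAM domain genes, 0 to 1 for CCR4-NOT, 1 to 2 for Wnt genes and 6 to 11 for neighbours. Transcripts called numbered 0 to 0, with 4617 to 5277 at an unadjusted p under 0.05. The UAP1L1 share was 9.34% to 14.4% in Doxy(-) and 27.1% to 33.0% in Doxy(+).

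On log2(TPM + 1) with limma, which shrinks low genes, the log2 fold change was 2.54 for C21orf91, 2.25 for UAP1L1 and 0.47 for SAMD5. C21orf91 was at 2.81 on log2(TPM + 0.1) and at 2.80 with length-scaled counts. SAMD4A lost its call with limma (-0.23 and -0.24, adjusted p 0.124 and 0.126) and with length-scaled counts (-0.27, adjusted p 0.05002). Past both limits, limma on log2(TPM + 1) called 129 genes higher, and lower genes numbered 99 without the filter, 41 by DESeq2, and 33 and 38 by limma with pseudocounts 1 and 0.1. At an adjusted p under 0.05, higher genes numbered 781 by DESeq2, 644 and 628 by limma and 678 with length-scaled counts, and lower genes 775, 334 and 324, and 586.

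UDP-GlcNAc synthesis and salvage kept 5 calls by DESeq2, 4 and 4 by limma and 4 with length-scaled counts, and its use list had 5 without the filter. SAM domain and Wnt genes had 1 call each by DESeq2, both limma fits and length-scaled counts. Synaptotagmins had 2 without the filter. By DESeq2, both limma fits and length-scaled counts, synaptotagmins and CCR4-NOT genes had 0 calls, with 2 to 5 and 1 to 3 at an unadjusted p under 0.05. Called neighbours numbered 2 and 2 by limma, 6 with length-scaled counts and 17 within 1000 kb. The UAP1L1 share by CPM was 19.0% and 49.8%, and without transcripts under 500 bases, chosen after seeing the data, 36.9% in Doxy(+).

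No alternative tool was run for the SYT16 bound or for transcripts. Depth limits SAMD5 and SYT16 most, at 24.4 to 68.4 and 0 to 21.9 estimated counts.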
